A study of Mus musculus with 6 samples.

Results

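Kruppel-like factors (Klf genes) were followed in fully grown mouse oocytes without Ring1 in which Rnf2, the gene of the other catalytic subunit of a Polycomb complex, was deleted as well. The 10 members, Klf2, Klf3, Klf4, Klf5, Klf6, Klf7, Klf9, Klf10, Klf13 and Klf17, were found by their symbol among the 24028 genes of the deposited table, and all 10 were present. They were chosen with their measured levels in these same libraries already known, so the differences between the groups given for them are descriptions with no test. All levels are in FPKM, a count of sequenced fragments divided by the length of the transcript and by the size of the library.

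The 3 dKO libraries came from Ring1-/- females with floxed Rnf2 alleles and the Zp3-cre transgene, which expresses a recombinase in growing oocytes. The 3 control libraries came from Ring1-/- females with the same floxed alleles and no transgene, so Ring1 was deleted in both groups and no library had it intact. All females were approximately 3 months old and of a mixed FVB, 129/Sv and C57BL/6J background, and each library held 15 pooled oocytes of 1 female. The labels do not say that every library came from a different female, so p-values measure the spread between these libraries. The oocytes were at the germinal vesicle stage, before meiotic maturation, and effects of the transgene, of the index sequence particular to each group and of the Rnf2 deletion cannot be told apart.

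Kruppel-like factors are transcription factors that bind GC-rich and CACCC sequences through zinc fingers at their carboxyl end, while the amino-terminal parts differ and recruit different partners. One branch (Klf3, Klf8, Klf12) binds the corepressor CtBP, one (Klf2, Klf4, Klf5, Klf6, Klf7) acts largely as activators, and one (Klf9, Klf10, Klf11, Klf13, Klf14, Klf16) binds the Sin3 corepressor. Klf17 is known for its expression in oocytes and early cleavage embryos. Ring1 and Rnf2 encode the E3 ubiquitin ligases of Polycomb repressive complex 1, which keeps many CpG-rich developmental promoters silent.

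Rnf2, the targeted gene, stood at 14.8, 8.44 and 5.31 FPKM in dKO libraries 1 to 3, against 53.7, 46.8 and 48.2 FPKM in control libraries 1 to 3 (19.2% of the control mean, limma, adjusted p = 0.000696), and its exons overlap Trmt1l. Pearson's r of log2(FPKM + 1) was 0.928 to 0.948 within dKO libraries, 0.982 to 0.983 within controls and 0.866 to 0.917 between the groups.

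Promoter sequences are shown for 3 members. Klf3 and Klf4 had the largest rises on the scale of log2(FPKM + 1), and Klf17 was the one below the control. By the ratio of mean FPKM, Klf9, Klf5 and Klf2 were further above the control than Klf4 (17.5-fold, 13.6-fold and 10.5-fold against 9.28-fold). The promoters are RefSeq sequences of build GRCm38.p6, 250 bases before and 50 bases after the gene start, written 5′ to 3′ on the gene's own strand. The deposited values were made on build mm9, so no coordinate of theirs is mixed with these. Capitals mark CACCC (or GGGTG on the other strand) and GGGCGG (or CCGCCC), the CACCC box and the GC box to which this family and the Sp factors are known to bind. The 2 motifs may overlap each other.
Klf3: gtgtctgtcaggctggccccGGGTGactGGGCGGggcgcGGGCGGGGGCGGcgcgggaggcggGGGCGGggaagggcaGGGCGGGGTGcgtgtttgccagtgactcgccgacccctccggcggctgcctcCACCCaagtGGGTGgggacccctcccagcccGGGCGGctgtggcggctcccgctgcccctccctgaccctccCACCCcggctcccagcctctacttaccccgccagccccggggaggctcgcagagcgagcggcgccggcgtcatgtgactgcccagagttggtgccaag
Klf4: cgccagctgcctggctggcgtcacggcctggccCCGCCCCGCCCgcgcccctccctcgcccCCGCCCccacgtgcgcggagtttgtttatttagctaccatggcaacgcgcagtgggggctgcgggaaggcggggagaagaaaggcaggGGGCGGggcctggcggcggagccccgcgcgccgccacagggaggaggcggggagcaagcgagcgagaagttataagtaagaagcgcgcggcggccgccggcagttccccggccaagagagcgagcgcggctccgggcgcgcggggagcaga
Klf17: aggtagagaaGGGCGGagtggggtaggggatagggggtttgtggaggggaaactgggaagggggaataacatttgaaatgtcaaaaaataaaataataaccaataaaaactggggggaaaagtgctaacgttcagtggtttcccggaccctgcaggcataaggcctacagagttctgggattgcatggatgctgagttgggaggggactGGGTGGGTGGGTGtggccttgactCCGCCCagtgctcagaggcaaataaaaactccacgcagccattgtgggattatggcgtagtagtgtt
The Klf3 window is chr5:64803271-64803570 on the plus strand and held 5 CACCC and 6 GGGCGG. The Klf4 window is chr4:55532426-55532725 on the minus strand and held 4 GGGCGG and no CACCC. The Klf17 window is chr4:117765617-117765916 on the minus strand and held 3 CACCC and 2 GGGCGG.

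Of the 10 members, 8 had a promoter in the reference table, among 32851 promoters of the same length. GGGCGG was in 7 of the 8 and in 35.7% of all promoters, and CACCC in 6 of the 8 and in 57.5% of all, both searched on both strands. TATAAA, searched on the gene's own strand only, was in 0 of the 8 and in 8.32% of all. The observed over expected number of CpG, the count of CG times the length over the product of the C and G counts, was 0.974 for Klf4, 0.962 for Klf9, 0.889 for Klf2, 0.844 for Klf6, 0.837 for Klf13, 0.742 for Klf7, 0.659 for Klf3 and 0.379 for Klf17. All promoters had a median of 0.384, and 35.8% of them reached 0.6, a limit often used for CpG islands. Klf17 was the only member of the 8 under that limit in this window. With only the 250 bases before the start, Klf3 was under it too, at 0.599. A motif or CpG count describes these windows and says nothing of what was bound there.

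**Figure D1:**
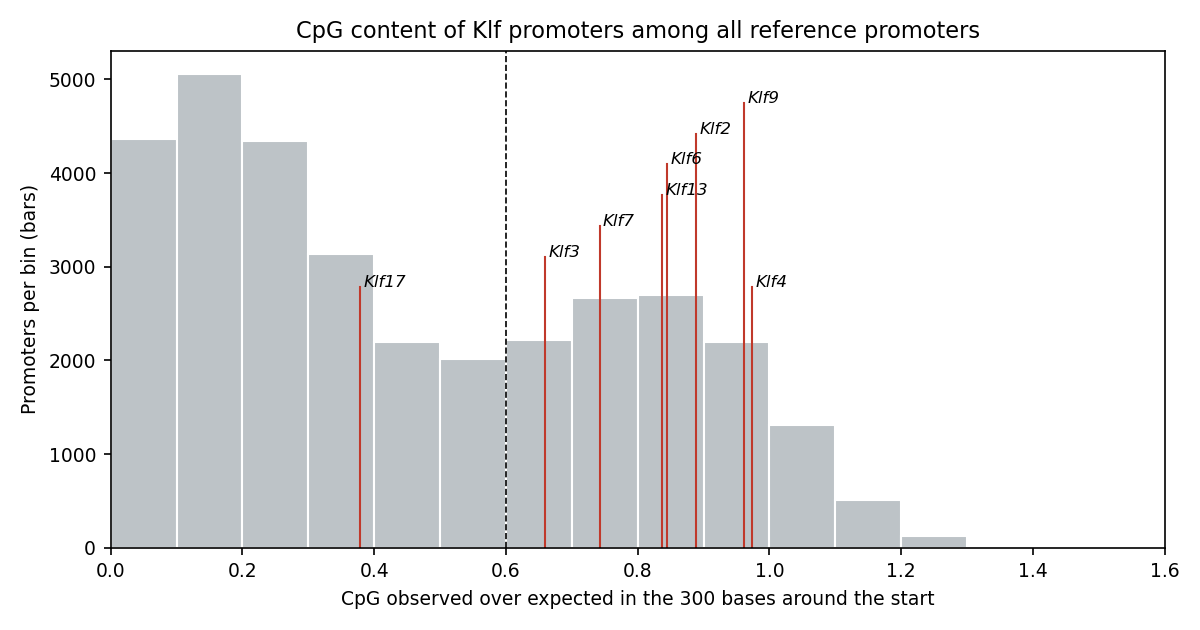
Distribution of the observed over expected CpG number (x axis, a ratio) over the 32851 RefSeq promoter windows, with the number of promoters on the y axis and the 8 members with a promoter marked. Klf17 lies near the median of 0.384, and the other 7 lie between 0.659 and 0.974.

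In control oocytes the 10 members stood well apart, with means between 89.5 FPKM for Klf17 and 0.0870 FPKM for Klf2. Klf17 was highest, followed by Klf7, Klf10, Klf4, Klf13, Klf6, Klf3, Klf9, Klf5 and Klf2. Neighbours in that order had overlapping ranges at only 2 steps, Klf3 with Klf9 and Klf5 with Klf2. In dKO oocytes the order was Klf17, Klf7, Klf4, Klf3, Klf10, Klf6, Klf9, Klf5, Klf13 and Klf2, and neighbours were clear of each other at only 2 steps, Klf3 above Klf10 and Klf9 above Klf5. Of the members, 9 had a mean of at least 1 FPKM in dKO oocytes, against 5 in control oocytes.

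**Figure D2:**
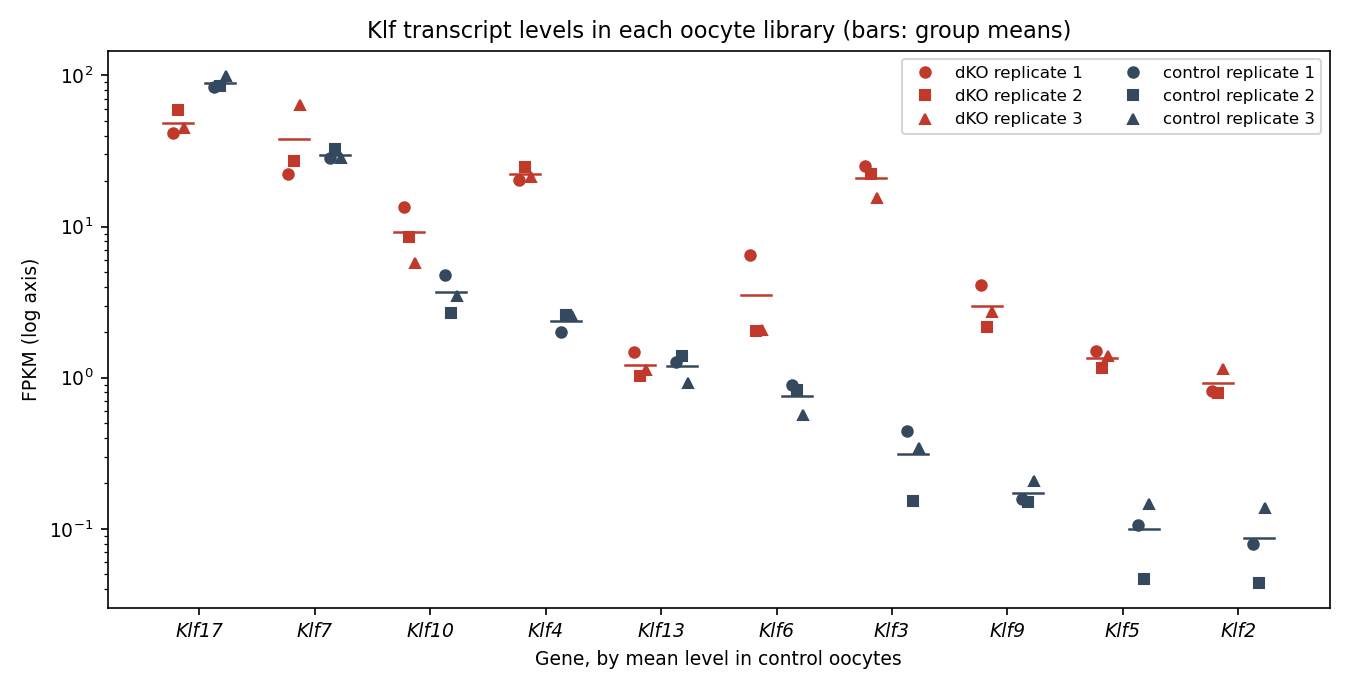
Level of each of the 10 members in the 3 dKO and 3 control libraries (FPKM, log axis), 1 point per library, with the group means. Klf2, Klf3, Klf4, Klf5 and Klf9 lie far above the control in every dKO library, Klf17 lies below it in every one, and the points of Klf7 and Klf13 overlap.

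Klf3, the CtBP-recruiting repressor, had the largest ratio between the groups among the members. It stood at 25.0, 22.1 and 15.4 FPKM in dKO libraries 1 to 3, against 0.442, 0.152 and 0.344 FPKM in control libraries 1 to 3. Its mean was 20.8 ± 4.95 FPKM in dKO oocytes and 0.313 ± 0.148 FPKM in control oocytes (SD, n = 3 each), a 66.7-fold ratio. All dKO libraries were far above all controls, with library 3 the lowest of them. On the log2(FPKM + 1) scale, on which all differences below are given and which understates those of low genes, dKO minus control was 4.04 ± 0.23 (SE). Exons of Klf3 overlap the predicted gene Gm20033 on the opposite strand, and the use of strand is not given in the sources used here, so reads of these genes cannot be told apart.

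Klf4, a factor of epithelial differentiation and one of the factors that reprogram somatic cells to pluripotency, had the smallest ratio of its highest to its lowest dKO library among the members that were higher, at 1.24. It stood at 20.2, 24.9 and 21.3 FPKM in dKO libraries 1 to 3, against 2.01, 2.60 and 2.55 FPKM in control libraries 1 to 3. Both groups were tight and did not overlap. Its mean was 22.2 ± 2.48 FPKM in dKO oocytes and 2.39 ± 0.327 FPKM in control oocytes, a 9.28-fold ratio and a log2 difference of 2.77 ± 0.19. Klf4 was the one of these activators that was already above 1 FPKM in all controls, apart from Klf7.

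Klf2, known from endothelium and naive pluripotent cells, and Klf5, known from early embryos and epithelia, were higher from near 0 and remained low. Klf5 stood at 1.50, 1.16 and 1.39 FPKM in dKO libraries 1 to 3, against 0.106, 0.0468 and 0.145 FPKM in control libraries 1 to 3, a log2 difference of 1.09 ± 0.15. Klf2 stood at 0.815, 0.793 and 1.14 FPKM in dKO libraries 1 to 3, against 0.0798, 0.0442 and 0.137 FPKM in control libraries 1 to 3, a log2 difference of 0.81 ± 0.15. Neither gene's groups overlapped. The control values rest on few fragments: multiplied by the relative depth of their libraries they stood as 4 to 2 to 7 for Klf2 and as 5 to 2 to 7 for Klf5, whole within 0.03, so the 10.5-fold and 13.6-fold ratios of their means are imprecise. The log2 differences of such low values depend on the scale: that of Klf2 was 0.19 with quantile normalization and 2.46 with a pseudocount of 0.1, and that of Klf5 was 0.52 with quantile normalization and 2.89 with a pseudocount of 0.1. Klf2 reached 1 FPKM in 1 library only and was below the filter that the other 9 members passed, at least 1 FPKM in at least 3 libraries.

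Klf6, known from the response to tissue injury, was uneven between the dKO libraries. It stood at 6.45, 2.04 and 2.06 FPKM in dKO libraries 1 to 3, against 0.890, 0.825 and 0.566 FPKM in control libraries 1 to 3. Every dKO library was above every control, but library 1 was far above the others. The log2 difference was 1.23 ± 0.34, with 0.80 without dKO library 1 and 1.88 with a pseudocount of 0.1. Klf7, known from axon growth in neurons, was the activator with the highest level and its groups overlapped. It stood at 22.3, 27.3 and 64.1 FPKM in dKO libraries 1 to 3, against 28.5, 32.5 and 28.4 FPKM in control libraries 1 to 3. Libraries 1 and 2 were below all controls and library 3 was above them, so the log2 difference of 0.19 ± 0.34 turned to -0.26 without dKO library 3. Exons of Klf7 overlap Gm13748 and Gm26649 on the opposite strand.

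Among the Sin3-binding members, Klf9 and Klf10 were higher and Klf13 was not. Klf9, induced by glucocorticoid and thyroid hormone in other tissues, stood at 4.12, 2.15 and 2.72 FPKM in dKO libraries 1 to 3, against 0.158, 0.151 and 0.206 FPKM in control libraries 1 to 3. The groups were far apart, at a 17.5-fold ratio of the means and a log2 difference of 1.74 ± 0.21 (3.47 with a pseudocount of 0.1). Klf10, an early response gene of TGF-beta signalling, stood at 13.5, 8.54 and 5.73 FPKM in dKO libraries 1 to 3, against 4.82, 2.70 and 3.48 FPKM in control libraries 1 to 3. Here the lowest dKO library was close to the highest control, and the log2 difference of 1.09 ± 0.31 became 0.81 without dKO library 1. Klf13, known from T cells, stood at 1.49, 1.03 and 1.13 FPKM in dKO libraries 1 to 3, against 1.27, 1.40 and 0.925 FPKM in control libraries 1 to 3. Its groups overlapped, and its log2 difference of 0.01 ± 0.18 took the other sign under each of the 3 other scalings.

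Klf17 was the only member with all dKO libraries below all controls, and its mean remained the highest of the 10. In dKO library 3 alone, Klf7 at 64.1 FPKM was above it. It stood at 41.7, 59.2 and 45.0 FPKM in dKO libraries 1 to 3, against 83.9, 85.6 and 99.1 FPKM in control libraries 1 to 3. Its mean was 48.6 ± 9.31 FPKM in dKO oocytes and 89.5 ± 8.30 FPKM in control oocytes, 54.3% of the control level and a log2 difference of -0.88 ± 0.17. With bulk libraries, fewer transcripts per oocyte and fewer oocytes that carry the transcript cannot be told apart. Oocyte markers were set beside it: of 14, all tested, 3 fell and 11 did not pass the threshold. Thus 21.4% were called lower, beside 7.04% of all tested genes called lower and 21.0% called in either direction. Their median log2 difference was -0.55 beside -0.02 over all tested genes. Of the 14, 8 had all dKO libraries below all controls, beside 19.2% of tested genes. Ooep, a subunit of the subcortical maternal complex, averaged 605 ± 250 FPKM in dKO and 1211 ± 54.8 FPKM in control oocytes (limma, adjusted p = 0.0347). The receptor kinase gene Kit averaged 59.8 ± 10.1 FPKM in dKO and 100.3 ± 1.31 FPKM in control oocytes (limma, adjusted p = 0.0106), and Bmp15, an oocyte growth factor gene, averaged 593 ± 70.8 FPKM in dKO and 904 ± 8.67 FPKM in control oocytes (limma, adjusted p = 0.0418). The calls of all 3 were lost without any 1 control library, at adjusted p-values in limma of 0.0951 to 0.115 for Ooep, 0.0515 to 0.0570 for Kit and 0.146 to 0.155 for Bmp15, and those of Ooep and Bmp15 also without dKO library 1 (limma, adjusted p = 0.0682 and 0.0524). The call of Bmp15 was lost with the replicate number as a block as well (limma, adjusted p = 0.0740). The summed level of the 14 was 6524 to 9139 FPKM in dKO libraries and 10779 to 11327 FPKM in control libraries, and its part in the Klf17 difference was not tested.

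Over all 11334 genes that passed the filter, limma called 21.0% at an adjusted p under 0.05, 14.0% higher and 7.04% lower in dKO oocytes. The share of rises among the calls was 66.5%, against 54.1% with median-ratio scaling, 52.6% with quantile normalization and 48.0% with libraries centred on their mean. Of the 9 members that passed the filter, 6 were past the threshold as higher and 1 as lower, and Klf3, Klf5, Klf6 and Klf9 passed the filter only through the dKO libraries, so that they had to differ. Without overlap, 7 of the 10 members had all dKO libraries above all controls and 1 below, where 22.3% of tested genes were above and 19.2% below. The members were picked on this contrast, so nothing is read from these counts.

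The makeup of the family differed between the groups beside its sum. The summed level of the 17 Klf genes in the table was 193, 206 and 201 FPKM in dKO libraries 1 to 3, against 157, 160 and 170 FPKM in control libraries 1 to 3. Klf17 made up 21.5% to 28.7% of that sum in dKO libraries and 53.4% to 58.2% in control libraries. Klf3 made up 7.65% to 12.9% in dKO and 0.0952% to 0.281% in control libraries, and Klf4 made up 10.4% to 12.1% in dKO and 1.28% to 1.63% in control libraries. Klf7 ranged from 11.6% to 31.9% in dKO libraries and from 16.7% to 20.4% in control libraries. FPKM is scaled to transcript length, so these shares compare levels between genes.

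**Figure D3:**
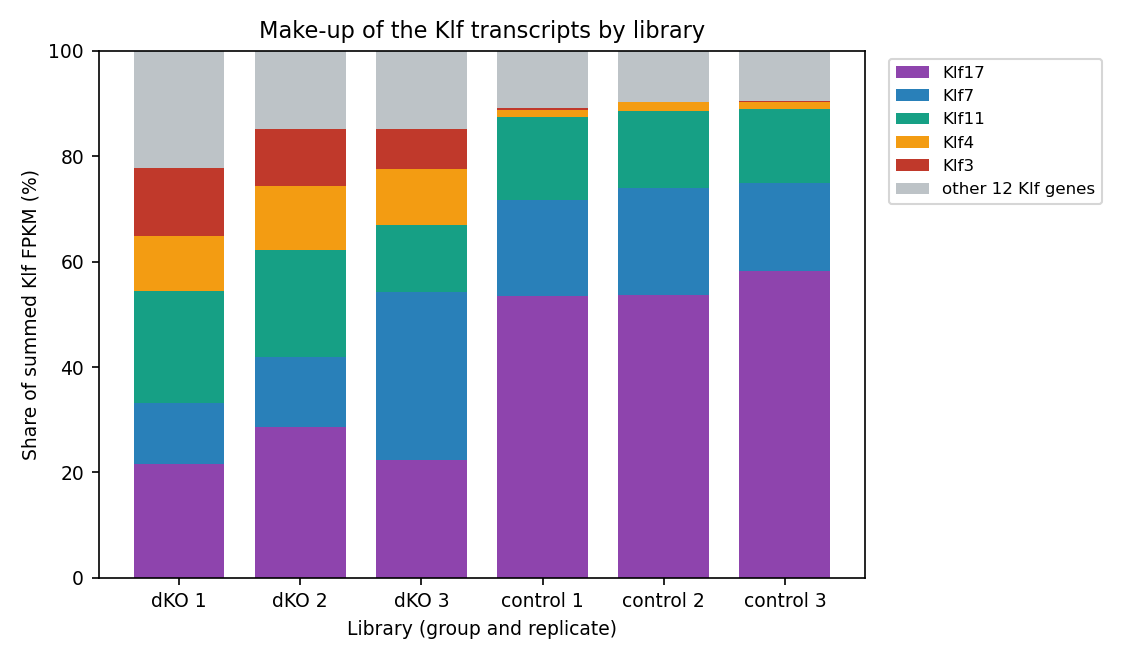
Share of the summed FPKM of 17 Klf genes (y axis, percent) held by Klf17, Klf7, Klf11, Klf4, Klf3 and the other 12 in each dKO and control library. Klf17 holds more than any other gene in each control library (53.4% to 58.2%) and 21.5% to 28.7% in the dKO libraries.

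The dKO libraries differed among themselves more than the controls did, and not in 1 direction. Of the members, dKO library 1 was the highest dKO library for 6 (Klf3, Klf5, Klf6, Klf9, Klf10 and Klf13), library 2 for 2 (Klf4 and Klf17) and library 3 for 2 (Klf2 and Klf7). The SD of log2(FPKM + 1) was larger in dKO than in control oocytes for 9 of the 10, Klf13 being the exception, and its median over all tested genes was 0.316 in dKO and 0.141 in control oocytes. Relative depth, read from the steps of low values, was 0.660, 0.807 and 1.09 in dKO libraries 1 to 3, against 1, 0.901 and 1.02 in control libraries 1 to 3. The library with the highest values for 6 members was thus the shallowest one.

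**Figure D4:**
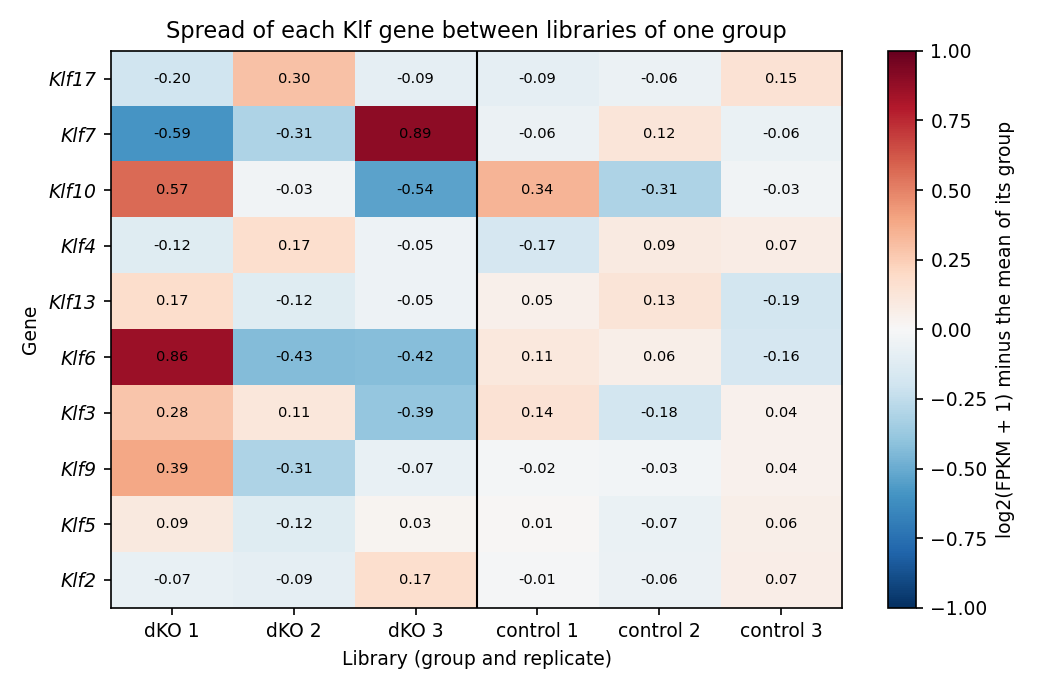
Deviation of each library's log2(FPKM + 1) from its group mean (log2 units) for the 10 members, dKO libraries and control libraries. Klf7 in dKO library 3 and Klf6 in dKO library 1 stand furthest from their group means, and control libraries stay at most 0.34 from theirs.

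The Klf genes outside the 10 were not used by the rule and were tested, though this list too was written with earlier results of these data known. The deposited table held 7 of them, of which 3 passed the filter and 1 rose, 33.3% of the 3 beside 14.0% of all tested genes. The median log2 difference was 0.54 over these 3 beside -0.02 over all tested genes. Klf12, a CtBP-binding repressor like Klf3, stood at 5.07, 3.51 and 8.12 FPKM in dKO libraries 1 to 3, against 0.00582, 0.0580 and 0.0171 FPKM in control libraries 1 to 3. The groups were far apart (log2 difference 2.62 ± 0.26, limma, adjusted p = 0.000190), though the gene passed the filter only through the dKO libraries and so had to differ. Klf11, which binds Sin3 and is induced by TGF-beta, stood at 41.3, 42.0 and 25.6 FPKM in dKO libraries 1 to 3, against 25.0, 23.3 and 23.8 FPKM in control libraries 1 to 3. Library 3 lay close to the controls, and Klf11 missed the threshold (log2 difference 0.54 ± 0.21, limma, adjusted p = 0.0952) in the reported fit. It passed with quantile normalization (limma, adjusted p = 0.0431), with array weights (limma, adjusted p = 0.0341) and without dKO library 3 (limma, adjusted p = 0.00499), and its adjusted p in limma was 0.00499 to 0.239 over 16 alternatives. Klf16 averaged 7.81 ± 1.78 FPKM in dKO and 9.81 ± 0.360 FPKM in control oocytes (limma, adjusted p = 0.297). Klf14, below the filter, stood at 0.967, 0.838 and 0.644 FPKM in dKO libraries 1 to 3 and was listed at 0 in all 3 control libraries.

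The Sp genes, the sister family with the same binding sequences, were all 9 present, of which 4 passed the filter and 1 rose. That is 25% of the 4, beside 14.0% of all tested genes called higher. The median log2 difference was 0.16 over the 4. Sp9, a developmental regulator of limb and brain, stood at 5.02, 3.18 and 2.58 FPKM in dKO libraries 1 to 3, against 0.0863, 0.00682 and 0.169 FPKM in control libraries 1 to 3 (log2 difference 2.05 ± 0.22, limma, adjusted p = 0.000318). Its exons overlap Cir1 on the opposite strand, and it passed the filter only through the dKO libraries and so had to differ. The ubiquitous Sp1, Sp2 and Sp3 did not pass the threshold (limma, adjusted p = 0.644, 0.191 and 0.656). Sp1 averaged 17.1 ± 2.02 FPKM in dKO and 15.6 ± 3.15 FPKM in control oocytes.

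**Figure D5:**
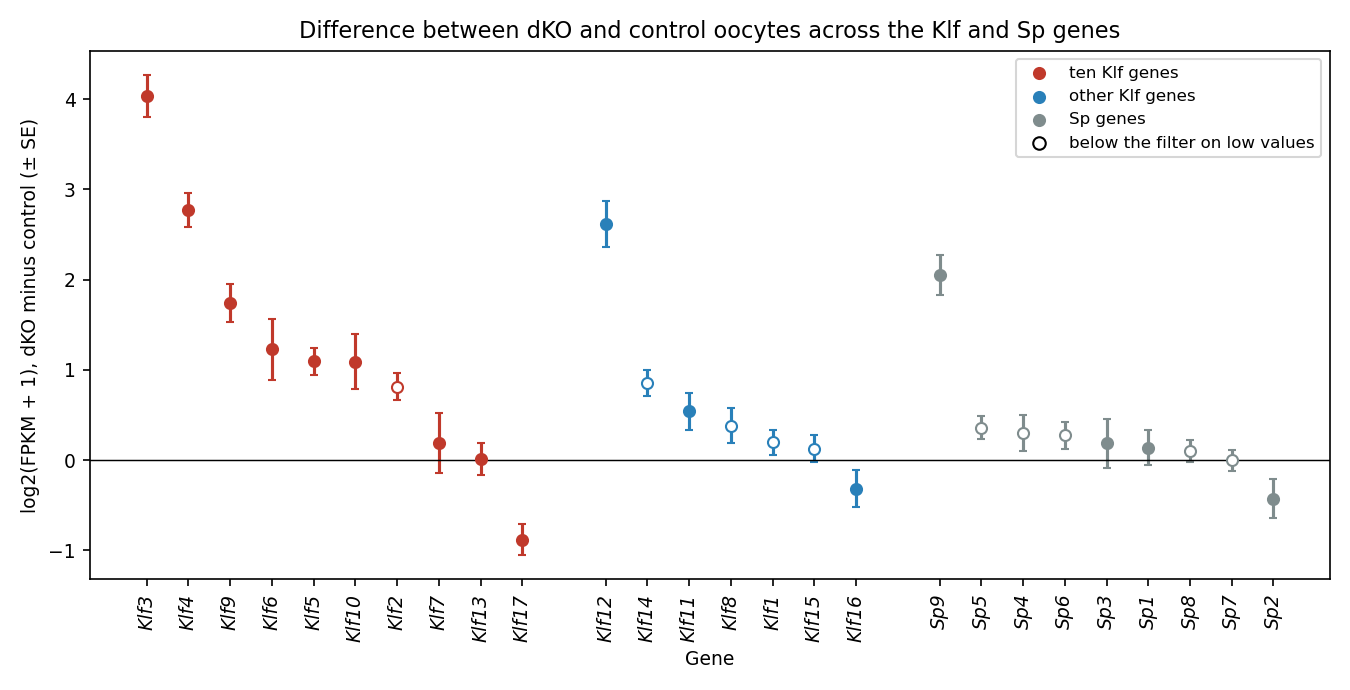
Log2 difference of FPKM + 1, dKO minus control, with its standard error, for the members, the other Klf genes and the Sp genes. Klf3 at 4.04 and Klf4 at 2.77 lead the members, Klf12 at 2.62 and Sp9 at 2.05 lead the others, and Klf17 at -0.88 is the lowest.

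Of 19 cofactor genes 18 passed the filter, 2 rose and 1 fell, with a median log2 difference of -0.04. That is 16.7% of them, near the 21.0% called over all tested genes. Sap30, a subunit of the Sin3 complex, averaged 146 ± 20.4 FPKM in dKO and 61.9 ± 7.92 FPKM in control oocytes (log2 difference 1.22 ± 0.17, limma, adjusted p = 0.00112). Wwp1, a ubiquitin ligase known to act on Klf5, averaged 6.35 ± 0.502 FPKM in dKO and 3.42 ± 0.108 FPKM in control oocytes (limma, adjusted p = 0.0229). Ctbp2, the corepressor gene of the Klf3 branch, averaged 18.7 ± 3.90 FPKM in dKO and 30.5 ± 2.56 FPKM in control oocytes (limma, adjusted p = 0.0308), and its exons overlap those of another gene. The calls of Wwp1 and Ctbp2 were lost without any 1 of the 3 control libraries, at adjusted p-values in limma of 0.0877 to 0.102 for Wwp1 and 0.0923 to 0.131 for Ctbp2.

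Of 19 genes of the pathways known to act on Klf expression 15 passed the filter and 1 rose, with a median log2 difference of 0.19. That is 6.67% of the 15, beside 14.0% of all tested genes called higher. Tgfbr1, a receptor of the TGF-beta pathway that induces Klf10, averaged 13.7 ± 4.34 FPKM in dKO and 7.10 ± 1.22 FPKM in control oocytes (limma, adjusted p = 0.0450), and the call was lost without dKO library 1 or 2 or any control library (limma, adjusted p = 0.0729 to 0.170). With the replicate number as a block, Tgfbr1 and 2 more genes, Mef2d and Mef2a, passed the threshold (limma, adjusted p = 0.0202, 0.0289 and 0.0453). Mef2d averaged 29.0 ± 10.2 FPKM in dKO and 16.2 ± 2.73 FPKM in control oocytes. The 1 upstream gene called was Mef2d without dKO library 1 (limma, adjusted p = 0.00707) and Thrb without dKO library 2 (limma, adjusted p = 0.0447). Without dKO library 3 it was Tgfbr1 (limma, adjusted p = 0.0159).

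Of 18 genes named as Klf targets in other tissues 7 passed the filter and 4 rose (Pdgfa, Bmp4, Cdkn1a and Atf3). The 4 make up 57.1% of the 7, beside 14.0% of all tested genes called higher. Bmp4 and Atf3, 2 of these 4, passed the filter only through the dKO libraries and so had to differ. The median log2 difference of the 7 was 0.70. Pdgfa, a growth factor gene, averaged 8.51 ± 0.791 FPKM in dKO and 2.23 ± 1.01 FPKM in control oocytes (limma, adjusted p = 0.00257). Bmp4, a signalling ligand gene, averaged 1.96 ± 0.599 FPKM in dKO and 0.0604 ± 0.0532 FPKM in control oocytes (limma, adjusted p = 0.000910). Cdkn1a, which encodes the cell cycle inhibitor p21, averaged 5.13 ± 1.39 FPKM in dKO and 2.14 ± 0.616 FPKM in control oocytes (limma, adjusted p = 0.0227), a call lost without control library 1 or 2 (limma, adjusted p = 0.0977 and 0.103). Whether these genes respond to any Klf gene here was not tested.

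Several Klf genes are known as early response genes in other cells, so immediate early genes were set beside them. Of 18 such genes 6 passed the filter and 5 rose, 83.3% of the 6, beside 14.0% of all tested genes called higher. Atf3, 1 of these 5, passed the filter only through the dKO libraries and so had to differ. The median log2 difference of the 6 was 0.89. The summed level of the 18 was 139 to 185 FPKM in dKO libraries and 72.4 to 87.4 FPKM in control libraries. Btg2, an antiproliferative gene, averaged 10.9 ± 4.16 FPKM in dKO and 3.69 ± 0.460 FPKM in control oocytes (limma, adjusted p = 0.00880). Zfp36, an mRNA decay factor gene, averaged 10.4 ± 2.62 FPKM in dKO and 3.71 ± 0.953 FPKM in control oocytes (limma, adjusted p = 0.00651), and the transcription factor gene Egr1 averaged 29.6 ± 2.93 FPKM in dKO and 14.8 ± 4.32 FPKM in control oocytes (limma, adjusted p = 0.0137, and 0.0502 without control library 1). Of the 18, 9 had all dKO libraries above all controls and 0 below. Over tested genes these shares were 22.3% and 19.2%, but only 6 of the 18 were tested. Fos and Jun, the classic members of the group, were below the filter, with all dKO libraries above all controls. Their means were 1.22 and 0.368 FPKM in dKO oocytes and 0.0452 and 0.0234 FPKM in control oocytes. The part of such a response in the Klf differences was not tested.

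Markers of the granulosa cells that were stripped off were higher in sum, at 75.1 to 77.0 FPKM in dKO libraries and 48.6 to 54.9 FPKM in control libraries. Of 14, 8 passed the filter, and 3 rose, with a median log2 difference of 0.42 over the 8. The 3 make up 37.5% of the 8, beside 14.0% of all tested genes called higher. Fshr and Inhba, 2 of these 3, passed the filter only through the dKO libraries and so had to differ. Fshr, the receptor gene of follicle-stimulating hormone, averaged 10.6 ± 1.23 FPKM in dKO and 0.158 ± 0.0183 FPKM in control oocytes (limma, adjusted p = 1.76e-05), Inhba averaged 2.75 ± 1.46 FPKM in dKO and 0.637 ± 0.324 FPKM in control oocytes (limma, adjusted p = 0.0204), and Nr5a2 averaged 25.5 ± 1.61 FPKM in dKO and 16.5 ± 2.02 FPKM in control oocytes (limma, adjusted p = 0.0288). Esr2 averaged 24.1 ± 0.727 FPKM in dKO and 19.6 ± 3.08 FPKM in control oocytes (limma, adjusted p = 0.242). The call of Inhba was lost without control library 1 or 2 (limma, adjusted p = 0.0757 and 0.0842) and that of Nr5a2 without any 1 control library (limma, adjusted p = 0.0661 to 0.152). The defining granulosa genes Foxl2 and Amhr2 were near 0, at 0.347 and 0.0319 FPKM in dKO oocytes and 0.0596 and 0.0518 FPKM in control oocytes, and Amh was at 0.346 FPKM in dKO and 0.692 FPKM in control oocytes. Cyp19a1, the aromatase gene of granulosa cells, went the other way, at 5.78 ± 0.498 FPKM in dKO and 9.94 ± 2.04 FPKM in control oocytes, with all dKO libraries below all controls. It stood at the threshold (limma, adjusted p = 0.05004, not called) and was called lower with median-ratio scaling (limma, adjusted p = 0.0299), quantile normalization (limma, adjusted p = 0.0318), centring on the mean (limma, adjusted p = 0.0228), limma without trend (adjusted p = 0.0414) and a pseudocount of 0.1 (limma, adjusted p = 0.0498), with a range of 0.0228 to 0.192 over 16 alternatives.

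Markers of other cells, on a list of 20, summed to 26.9 to 34.2 FPKM in dKO libraries and 25.7 to 34.5 FPKM in control libraries. Of them 4 passed the filter, 1 rose and 1 fell, so that 50% of the 4 were called, beside 21.0% of all tested genes. The one that rose, Krt8, passed the filter only through the dKO libraries and so had to differ. This epithelial keratin gene averaged 4.06 ± 2.07 FPKM in dKO and 0.0820 ± 0.0740 FPKM in control oocytes (limma, adjusted p = 0.00175). Pecam1, known from endothelium, averaged 14.9 ± 2.57 FPKM in dKO and 25.2 ± 4.11 FPKM in control oocytes (limma, adjusted p = 0.0280, and 0.0622 to 0.130 without dKO library 1, control library 1 or control library 3), and Tek averaged 5.43 ± 0.312 FPKM in dKO and 4.05 ± 0.718 FPKM in control oocytes (limma, adjusted p = 0.236). Emcn, C1qa, Hbb-b1 and Krt19, defining markers of endothelium, macrophages, red cells and epithelium, were listed at 0 in all 6 libraries. The other red cell marker, Hba-a1, stood at 0.125 and 0.0505 FPKM in dKO libraries 1 and 3 and at 0 in all others. The endothelial Cdh5 stood at 0.0317 FPKM in dKO library 2 only. The epithelial Krt18 stood at 0.0407 FPKM in dKO library 1 and 0.0807 FPKM in control library 1 only. Other immune markers were not all at 0. Cd68 averaged 1.75 ± 1.49 FPKM in dKO and 1.22 ± 0.767 FPKM in control oocytes (limma, adjusted p = 0.703). Lyz2 stood at 2.85 FPKM in dKO library 3 and at most 0.0702 FPKM in any other library. Ptprc and Csf1r averaged 0.0272 and 0.0620 FPKM in dKO and 0 and 0.0262 FPKM in control oocytes. Of the 20, 7 had all dKO libraries above all controls and 1 below, where 22.3% of tested genes were above and 19.2% below. Only 4 of the 20 were tested, so the 2 sets are not alike. Dcn, Kdr, Pdgfra, Col1a1 and Ptprc, all among the 7, were below the filter. With no filter on low values 4 of 16 markers were called, all higher, beside 2006 of all 20310 genes called higher. Among the 7, the stromal gene Dcn was at 1.41 ± 0.400 FPKM in dKO and 0.207 ± 0.0682 FPKM in control oocytes, and the endothelial Kdr at 1.46 ± 0.628 FPKM in dKO and 0.424 ± 0.117 FPKM in control oocytes. The fibroblast genes Pdgfra and Col1a1 were at 0.578 and 0.138 FPKM in dKO oocytes and 0.0758 and 0.00472 FPKM in control oocytes. The part of other cells in the Klf differences was not tested.

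The genes whose pattern over the 6 libraries was most like that of Klf4 and of Klf17 were picked from tested genes with a mean within 2-fold of theirs, as a description with no test. For Klf4 they were Elmsan1, Cblb and Bcor, each with a Pearson r of 0.998, out of 3809 candidates of which 333 had an r over 0.9. Bcor, which encodes a corepressor of a variant Polycomb complex, stood at 20.1, 23.1 and 21.9 FPKM in dKO libraries 1 to 3, against 1.36, 1.37 and 1.86 FPKM in control libraries 1 to 3. For Klf17 they were Npc1, Clybl and Zcchc8, with an r of 0.998, 0.994 and 0.991, out of 1512 candidates of which 223 had an r over 0.9. Npc1, a cholesterol transport gene, stood at 49.8, 65.6 and 52.7 FPKM in dKO libraries 1 to 3, against 91.5, 93.1 and 100.6 FPKM in control libraries 1 to 3. Its exons overlap Rmc1 and Gm15956 on the opposite strand. All 6 libraries share the difference between the groups, which enters each of these r values.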

How the data were processed

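Per the labels' protocols, the Ovation v2 kit amplified the RNA of the 6 oocyte libraries. The authors deposited FPKM values, 1 column per library. The submitters' processing notes name build mm9 and the tools TopHat2 2.0.11 and Cufflinks 2.0.2. What each did, which annotation served and whether strand was used is not given in the sources used here. Exons of Bmp4, Cdkn1a, Krt8, Pdgfa, Wwp1 and Zfp36 also overlap a gene on the opposite strand, so reads of the overlaps cannot be told apart. Of 24525 rows, 497 repeated a symbol with all its values and were removed, leaving 24028 genes. The depth of each library is unknown, and counting intervals could not be had. Ratios among low values gave relative depth.

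The filter asked for 1 FPKM or more in 3 or more libraries and left 11334 genes. Values of log2(FPKM + 1), with the pseudocount of 1, went into limma 3.58.1 under R 4.3.3 (lmFit, eBayes with trend, two-sided, Benjamini-Hochberg adjustment over all kept genes, threshold 0.05), after tests on simulated data. SDs are of FPKM over 3 libraries. The members and lists were chosen with earlier results of these data known. Named were all members, up to 3 rising and 3 falling genes past the threshold per list, for markers of other cells also the 2 of the highest mean, and the 3 genes most like Klf4 and Klf17. Other genes, such as Atf3, Klf11, Klf14, Klf16, Mef2a, Mef2d, Thrb, Cyp19a1, Dcn, Kdr, Pdgfra, Col1a1, Cd68, Lyz2, Ptprc, Csf1r, Hba-a1, Cdh5, Krt18, Fos, Jun and the Sp genes, were named after their values were seen.

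Per the labels, each replicate number stands for 1 flow-cell lane (3, 4 and 6) with 1 library of each group, so the number pairs them, and their deviations from the group means correlated at 0.147, 0.107 and 0.0637. The tests reported have no block. Alternatives were other pseudocounts, filters, scalings, variance models, a stricter threshold, a replicate block and the removal of each library, in which the genes tested were kept. Promoters were matched by symbol for 8 of 10 members. The identity of zinc fingers was planned and not run, as protein sequences were not used here.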

Additional observations from a re-analysis of the deposited data

How the results depend on the processing

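No called result reversed, and the differences of Klf7 and Klf13, which were not called, took either sign. Of 160 alternative values of the member differences, 143 moved by less than the spread between replicates. Among the 143 are all values under 4 settings that could not move them: no filter, the filter at 5 FPKM, limma without trend and the replicate block. Of 394 alternative tests of named genes 339 kept their outcome, called or not, and 55 lost their call. Klf11, Cyp19a1, Mef2a, Mef2d and Thrb, which were not called in the reported fit and gained calls under some alternatives, were not among the 394. With the replicate block 2568 genes were called (1681 higher, 887 lower) against 2385 without it, and 3 upstream genes passed in place of 1. The block could not change the member differences, as each replicate number holds 1 library of each group. The SE with the block was 0.24 for Klf3 and 0.19 for Klf17. Across one library left out, calls ran from 1332 to 3031 over all genes (3031 without dKO library 2, and 1394, 1349 and 1332 without control libraries 1, 2 and 3). Member differences of at least 1 log2 unit ran from 4 to 6, and calls from 1 to 2 for other Klf genes, 1 to 4 for cofactors, 0 to 1 for upstream genes (not always the same gene), 2 to 4 for targets, 2 to 5 for immediate early genes, 1 to 4 for granulosa markers, 1 to 2 for other cells and 0 to 6 for oocyte markers. Counts that fell by more than 1.5 times came without a control library, and for other cells and oocyte markers (1) also without dKO library 1. The highs for other Klf genes and oocyte markers came without dKO libraries 3 and 2.

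Quantile normalization left 3 of 6 member differences of at least 1 log2 unit and gave 2 other Klf genes, 0 upstream genes, 2 targets and 1 oocyte marker. No filter on low values gave 2 other Klf genes, 2 Sp genes, 0 upstream genes, 2 targets, 4 markers of other cells and 1 oocyte marker. A filter at 5 FPKM gave 1214 calls, 0 other Klf genes and 0 Sp genes (fewer genes were tested), 0 upstream genes, 1 target and 1 marker of other cells. Array weights gave 2 other Klf genes and 1 marker of other cells, median-ratio scaling 6 oocyte markers, and centring on the mean, which set the median of all genes at -0.12, gave 0 upstream genes and 7 oocyte markers. A threshold of 0.01 gave 1176 calls, 1 cofactor, 0 upstream genes, 2 targets, 2 immediate early genes, 1 granulosa marker, 1 marker of other cells and 0 oocyte markers. Among named genes, the calls of Bmp15, Cdkn1a, Ctbp2, Inhba, Ooep, Pecam1 and Tgfbr1 were lost with no filter, those of Bmp15, Cdkn1a, Inhba, Ooep, Tgfbr1 and Wwp1 with quantile normalization, that of Nr5a2 with median-ratio scaling and centring on the mean, that of Tgfbr1 also with a filter at 5 FPKM or centring on the mean, and that of Pecam1 with array weights. Beyond what these settings' construction shows, the cause was not tested. Values under about 1 FPKM rest on few fragments and limit Klf2, Klf5 and the control levels of Klf3 and Klf9.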

Other observations

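Neighbours of the members on their chromosomes were described as well. Of the 20 nearest protein-coding neighbours, a list added after values were seen, 13 passed the filter, 1 rose, 2 fell and 10 were not called. That is 23.1% called, near the 21.0% of all tested genes. The one that rose, Klf12 beside Klf5, is itself a Klf gene. Ap1m1 beside Klf2, which encodes a subunit of a clathrin adaptor, averaged 11.7 ± 3.62 FPKM in dKO and 24.0 ± 0.354 FPKM in control oocytes (log2 difference -1.01, limma, adjusted p = 0.0115), and the call was lost without control library 1 (limma, adjusted p = 0.0514). Tbc1d1 beside Klf3 averaged 21.3 ± 4.18 FPKM in dKO and 36.4 ± 4.69 FPKM in control oocytes (log2 difference -0.76, limma, adjusted p = 0.0232), and the call was lost without control library 1 or 2 (limma, adjusted p = 0.107 and 0.0998). Both neighbours lay below the control while the Klf gene beside them lay above it. Rad23b beside Klf4 averaged 83.0 ± 16.9 FPKM in dKO and 86.8 ± 7.34 FPKM in control oocytes (limma, adjusted p = 0.778). Dmap1 beside Klf17 averaged 16.6 ± 6.71 FPKM in dKO and 27.0 ± 3.00 FPKM in control oocytes (limma, adjusted p = 0.0745).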
